A study of Mus musculus with 36 samples.

Results

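The machinery that copies the genome was followed here through 40 genes, chosen by name for their known roles at origins and the replication fork, with earlier results of these data known, out of 24411 genes listed for each library. All 40 were listed and all passed the filter on low counts, a CPM (counts scaled to library size) of at least 1 in at least 2 libraries, which left 12509 genes for the tests. They fall into 6 groups by role: the origin recognition complex (6 genes), helicase loading (8), helicase activation (8), the polymerases and primase (6), the sliding clamp and its loader (6), and strand completion with single-strand binding (6).

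Chromosome replication begins where the origin recognition complex marks the DNA in G1 and, with Cdc6 and Cdt1, loads the ring-shaped Mcm2 to Mcm7 helicase in an inactive form. At the start of S phase the kinase Cdc7 with Dbf4 and the proteins Mcm10, Cdc45 and GINS turn the ring into a moving helicase, after which primase and the polymerases copy the strands on the sliding clamp Pcna. Many of these genes are transcribed mainly in late G1 and S phase, under E2F factors, so cultures with more dividing cells usually hold more of their mRNA.

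The libraries came from mesenchymal stem cells (MSCs), plastic-adherent stromal cells, of C57BL6/J mice aged 8 weeks, with no transgene or compared treatment named in the sources. They were taken from femoral (fBM-MSCs) and vertebral (vBM-MSCs) marrow, adipose tissue (A-MSCs) and lung (P-MSCs) of the same 3 mice, and cultured for at most 3 passages. All cultures shared collagen I-coated dishes and MesenCult medium with MesenPure and a Rock inhibitor, which blocks a kinase of the cytoskeleton. Bone was crushed, whereas adipose tissue and lung were minced and digested with collagenase, so digestion and the contrast of marrow with non-marrow tissue cannot be told apart. Which libraries share a mouse is not given, so libraries were treated as independent, and p-values measure the spread between these libraries. Smart-seq2 RNA-seq was analysed for 3 libraries of fBM-MSCs, 2 of vBM-MSCs (replicate 3 was not analysed here), 3 of A-MSCs and 3 of P-MSCs, and ATAC-seq, which reads open chromatin, for 1 peak list per tissue made from pooled replicates.

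The depth of the libraries ranged from 19569650 to 40517739 expected counts (median 34414200). Levels of mRNA are given as TPM, which is scaled for transcript length and library and lets genes be compared. The lowest count of any member in any library was 10, for Orc1 in replicate 2 of the vBM-MSCs, and precision is lowest for such genes. The mRNAs of the 4 positive MSC markers were present in every library but not at like levels. Itgb1 lay between 465.67 and 1050.55 TPM throughout. Ly6a (Sca-1) was at 255.98 to 805.46 TPM in marrow, 114.0 to 144.58 in A-MSCs and 42.28 to 46.5 in P-MSCs, the reverse of the order of the replication genes. Vcam1 was at 113.4 to 117.46 TPM in P-MSCs and at most 71.77 elsewhere. Of 12 macrophage markers, 9 stayed under 1 TPM in every library, Fcgr1 was at 0 throughout and Ptprc (CD45) reached at most 0.35 TPM. The summed level of the macrophage list, led by Lyz2, was 36.16 to 49.37 TPM in fBM-MSCs and 22.05 to 42.18 in vBM-MSCs. It was 15.85 to 24.5 TPM in A-MSCs and 9.48 to 12.37 in P-MSCs. Lyz2 and Cd68 were higher in fBM-MSCs than in P-MSCs, whereas Csf1r went the other way. Csf1r was at 0.6 to 0.89 TPM in fBM-MSCs, 0.61 to 1.16 in vBM-MSCs, 5.46 to 6.56 in A-MSCs and 2.21 to 2.76 in P-MSCs. The epithelial list was highest in P-MSCs (51.69 to 59.82 TPM), where Krt19 alone had that same range. Of its 6 genes, 4 stayed under 1 TPM in every library, with Sftpc at 0 everywhere. The negative marker Cd34 reached 79.16 TPM in fBM-MSCs, and the endothelial gene Emcn 49.5 TPM in 1 library of A-MSCs. The summed level of 4 mesothelial markers was 29.09 to 39.17 TPM in A-MSCs, at most 0.24 in marrow and 1.61 to 3.09 in P-MSCs. The part of such cells in the results was not tested.

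The summed level of the 40 genes was lowest in marrow, intermediate in adipose tissue and highest in lung. It was 586.4 ± 8.47 TPM (SD, n = 3) for fBM-MSCs and 559.8 ± 48.0 (SD, n = 2) for vBM-MSCs. It was 1044.3 ± 48.7 (SD, n = 3) for A-MSCs and 2036.0 ± 69.4 (SD, n = 3) for P-MSCs. The sum in P-MSCs was thus 3.47 times that in fBM-MSCs and 1.95 times that in A-MSCs, and both steps outside marrow were larger than the SDs of the groups, whereas the marrow tissues differed by less than the SD of the vBM-MSCs. All 40 members had their highest mean TPM in P-MSCs, although on the TMM scale of the tests Orc4 and Rpa3 had fold changes under 0 between P-MSCs and A-MSCs (−0.13 and −0.15, not called). The lowest mean TPM fell in vBM-MSCs for 26 members, in fBM-MSCs for 11 and in A-MSCs for 3. These counts of highest and lowest means were not made over all genes tested, so how unusual they are is not known here. In bulk cultures, a larger share of cells in S phase and more of these mRNAs per cell cannot be told apart.

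**Figure D1:**
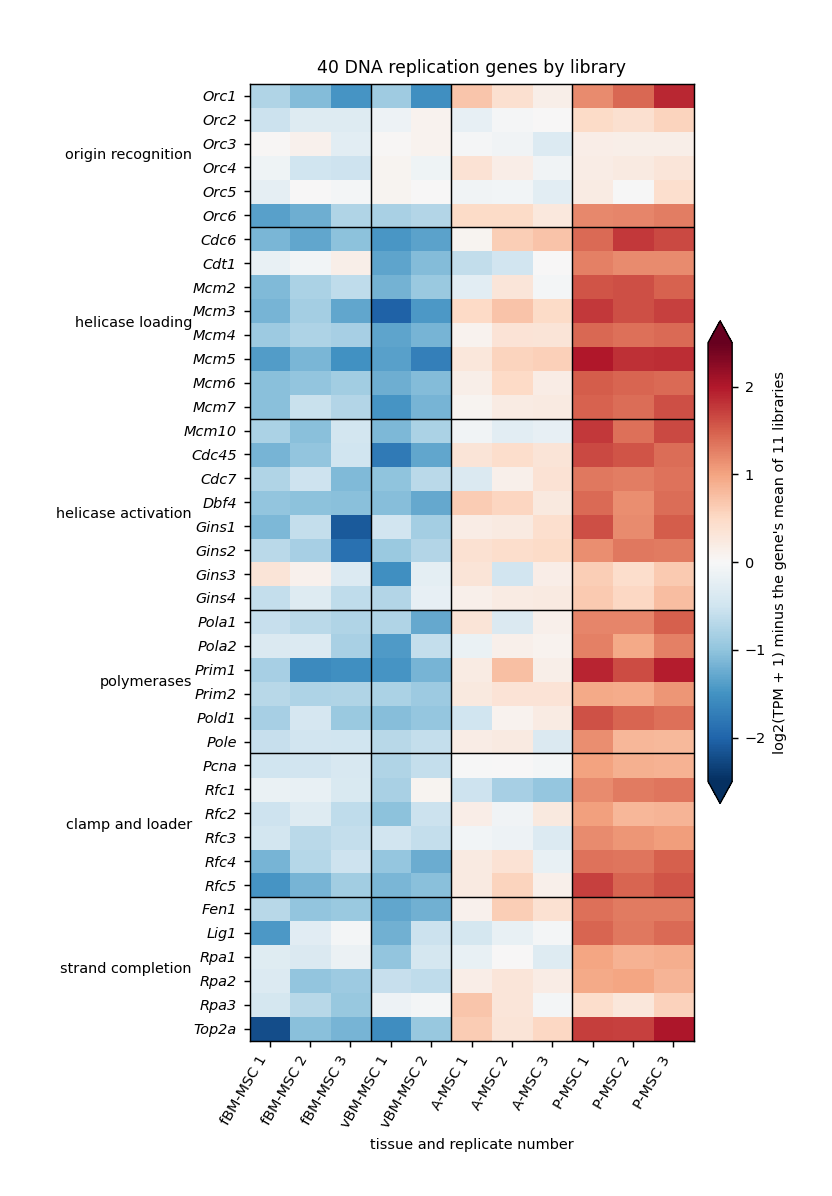
Each row is a gene, grouped by role, and each column a library; colour is log2(TPM + 1) minus the mean of that gene over the 11 libraries. The 3 P-MSC columns are the reddest for nearly every gene and the 5 marrow columns the bluest, while Orc3, Orc4 and Orc5 stay pale throughout.

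Tests used edgeR's quasi-likelihood test on the expected counts of all genes, with Benjamini-Hochberg adjustment, and a gene was called at an adjusted p under 0.05. That test gives no standard error. The SE of a log2 fold change given here is its absolute value divided by the square root of the F value. Among the 4 tissues, 37 of 40 members were called, against 60.6% of all genes tested, and the exceptions were Orc3, Orc5 and Gins3. Between P-MSCs and fBM-MSCs, 37 members were higher in P-MSCs and 0 lower, where 23.0% of all genes were higher and 24.7% lower. The median log2 fold change of the members was 2.21, a 4.63-fold difference, against −0.02 for all genes. Between P-MSCs and vBM-MSCs, 36 were higher and 0 lower (17.7% of all genes were higher and 21.0% lower), with a median of 2.55. These pairs share libraries, so their counts are not independent of each other.

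The step between the non-marrow tissues was smaller. In P-MSCs against A-MSCs, 31 members were higher and 0 lower (14.9% of all genes were higher and 16.0% lower), with a median log2 fold change of 1.05 against 0.01 for all genes. In A-MSCs against fBM-MSCs, 33 were higher and 0 lower (20.3% of all genes were higher and 20.6% lower), with a median of 1.08, and against vBM-MSCs 30 were higher and 0 lower (12.4% of all genes were higher and 13.2% lower), with a median of 1.38. The scale mattered for P-MSCs against A-MSCs: of all genes called, 48.3% were higher in P-MSCs with edgeR and 69.6% with limma on log2(TPM + 1), where the median of all genes lay at 0.163. On that scale 35 members were higher and 0 lower, with a median of 1.15. The corresponding shift of all genes on the TPM scale was 0.104 for P-MSCs against fBM-MSCs and −0.11 for A-MSCs against vBM-MSCs, and the TPM levels given here carry it.

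Without any model, the P-MSC libraries all lay above every other library for 37 members, a pattern shown by 20.1% of all genes tested, the exceptions being Orc4, Orc5 and Rpa3. On TMM-scaled CPM in place of TPM, 35 members did so. For 29 members the P-MSC libraries lay above the A-MSC libraries, and these above all 5 marrow libraries, with no overlap (5.61% of all genes).

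**Figure D2:**
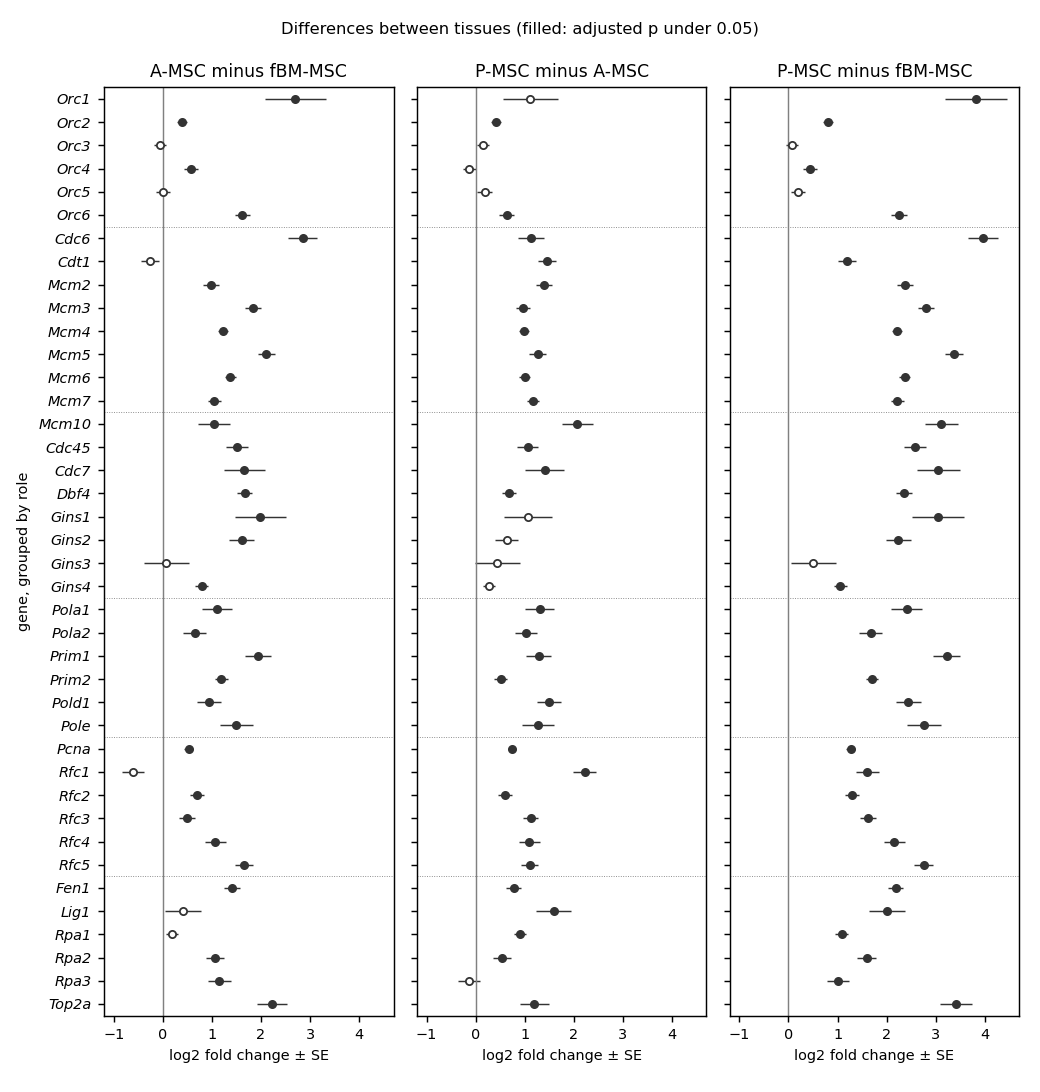
Points give the log2 fold change of each member from edgeR, with a standard error worked out from it and the F value. Panels show A-MSCs minus fBM-MSCs, P-MSCs minus A-MSCs and P-MSCs minus fBM-MSCs, and filled points passed an adjusted p of 0.05. Nearly all points lie right of 0 in every panel, and Rfc1 lies left of 0 in the first panel and farthest right in the second.

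Against fBM-MSCs, the origin recognition complex had the smallest median difference and the widest range of the 6 groups in P-MSCs. Of its 6 subunits, 4 were higher in P-MSCs than in fBM-MSCs, with a median log2 fold change of 0.62, but the range ran from 0.08 for Orc3 to 3.81 for Orc1. Orc6 (chr8:85299632-85308279 of GRCm38.p6, 6 to 7 exons) encodes the smallest subunit and had the highest mean of the group over all libraries. Its TPM was 15.15, 16.78 and 23.79 in the fBM-MSCs, 22.68 and 23.93 in the vBM-MSCs, 57.17, 56.79 and 48.93 in the A-MSCs, and 94.19, 95.62 and 99.85 in the P-MSCs. The marrow libraries formed a low group, and neither A-MSCs nor P-MSCs overlapped it or each other. Its log2 fold change between P-MSCs and fBM-MSCs was 2.25 (SE 0.16, edgeR adjusted p = 1.39e-06).

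Orc1 (chr4:108579454-108614833), the subunit whose protein is made and destroyed with the cell cycle, was scarce in marrow. Its TPM was 0.99, 0.57 and 0.21 in fBM-MSCs and 0.80 and 0.15 in vBM-MSCs, against 4.43, 3.43 and 2.69 in A-MSCs and 6.63, 8.05 and 11.44 in P-MSCs. The groups of marrow, adipose tissue and lung did not overlap, but the spread was wide. The log2 fold change between P-MSCs and fBM-MSCs was 3.81 (SE 0.635, edgeR adjusted p = 0.000475), whereas that between P-MSCs and A-MSCs, 1.11 (SE 0.55, edgeR adjusted p = 0.150), did not pass. With limma on log2(TPM + 1) or with a model of those tissues alone, it did.

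Orc3 (chr4:34566781-34614942, 20 exons), a core subunit, was flat. Its TPM was 11.62, 12.38 and 9.34 in fBM-MSCs, 11.63 and 12.13 in vBM-MSCs, 11.05, 10.65 and 8.80 in A-MSCs, and 12.81, 12.72 and 12.76 in P-MSCs. The P-MSC libraries were the highest by a narrow margin, A-MSCs lay below vBM-MSCs, and fBM-MSCs overlapped both. The log2 fold change between P-MSCs and fBM-MSCs was 0.08 (SE 0.12, edgeR adjusted p = 0.615). Orc5 differed by 0.19 (SE 0.14) and Orc4 by 0.44 (SE 0.14, edgeR adjusted p = 0.0188), a call that was lost without replicate 2 of the fBM-MSCs or without replicate 2 or 3 of the P-MSCs. Orc2 was higher by 0.81 (SE 0.11, edgeR adjusted p = 9.94e-05). Exons of Orc3 and Orc4 overlap other genes (Akirin2 over 2.03% and Acvr2a over 8.51% of their exonic bases), whose reads cannot be told apart without strand.

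The promoters of Orc1 and Orc3 are shown because both hold letters that E2F factors are known to bind, while their mRNAs were at opposite ends of the group. The 250 bases before each RefSeq start (GRCm38.p6, read 5′ to 3′ on the gene's strand) are in lower case, with the E2F letters on either strand in capitals.
Orc1 (chr4:108579204-108579453, plus strand): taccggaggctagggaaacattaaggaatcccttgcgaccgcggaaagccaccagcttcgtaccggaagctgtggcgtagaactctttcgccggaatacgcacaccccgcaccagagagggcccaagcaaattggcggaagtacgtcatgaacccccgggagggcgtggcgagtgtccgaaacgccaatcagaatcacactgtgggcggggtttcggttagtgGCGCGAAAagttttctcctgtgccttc
Orc3 (chr4:34614943-34615192, minus strand): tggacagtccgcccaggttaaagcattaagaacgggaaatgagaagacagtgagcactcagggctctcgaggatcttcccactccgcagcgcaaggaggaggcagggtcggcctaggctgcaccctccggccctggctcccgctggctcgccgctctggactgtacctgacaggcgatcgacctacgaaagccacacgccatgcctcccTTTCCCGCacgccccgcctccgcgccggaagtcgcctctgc
The match lies 27 bases before the start of Orc1 and 41 bases before that of Orc3. A match is a description of the sequence and not a site in use.

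The search covered TTTCCCGC, TTTGGCGC, TTTCGCGC and TTTGCCGC on both strands, in windows from 250 bases before to 50 bases after each start. RefSeq windows were at hand for 33 members, and not for Mcm4, Gins1, Gins2, Gins4, Prim2, Pole and Rfc2. Of the 33, 13 (39.4%) held at least 1 match, against 2.6% of 27025 genes with a window and 4.66% of 9515 tested genes. With TTTCCCGC and TTTGGCGC alone, 11 members (33.3%) matched, against 1.8% of genes with a window and 3.42% of tested genes. The median log2 fold change between P-MSCs and fBM-MSCs was 2.37 in the 13 members with a match (0.08 to 3.97) and 2.17 in the 20 without (0.19 to 3.42), so the ranges overlapped almost entirely. Among the subunits of the origin recognition complex, Orc1 and Orc3 matched and Orc2, Orc4, Orc5 and Orc6 did not, although the mRNA of Orc6 was called higher and that of Orc3 was not.

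In helicase loading, all 8 genes were higher in P-MSCs than in fBM-MSCs, than in vBM-MSCs and than in A-MSCs, with median log2 fold changes of 2.37, 2.78 and 1.15. The values against fBM-MSCs ran from 1.19 for Cdt1 to 3.97 for Cdc6. Mcm6 (chr1:128331575-128359705) was the most abundant gene of the group. Its TPM was 16.95, 17.68 and 19.52 in fBM-MSCs, 15.00 and 16.67 in vBM-MSCs, 40.24, 51.45 and 41.33 in A-MSCs, and 104.76, 100.69 and 98.68 in P-MSCs. No tissue outside marrow overlapped another, and the log2 fold change between P-MSCs and A-MSCs was 0.999 (SE 0.111, edgeR adjusted p = 0.000109). Mcm4 (chr16:15623897-15637400), whose differences were the largest against replicate spread in the group, had a TPM of 12.79, 14.24 and 13.53 in fBM-MSCs and of 9.34 and 10.52 in vBM-MSCs. It had 26.60, 31.72 and 31.27 in A-MSCs and 69.15, 66.15 and 68.14 in P-MSCs. No tissue overlapped another for Mcm4.

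Mcm5 (chr8:75109509-75128439) had the largest fitted log2 fold change of the helicase subunits between P-MSCs and fBM-MSCs. Its TPM was 4.76, 5.89 and 4.31 in fBM-MSCs, 4.98 and 3.68 in vBM-MSCs, 17.51, 21.32 and 22.14 in A-MSCs, and 60.29, 52.89 and 53.89 in P-MSCs. The marrow tissues overlapped each other and the others stood clear, and that log2 fold change was 3.36 (SE 0.18, edgeR adjusted p = 3.39e-07). For Mcm3 the TPM was 8.55, 11.01 and 7.79 in fBM-MSCs, 4.28 and 6.92 in vBM-MSCs, 29.33, 34.46 and 28.79 in A-MSCs, and 72.04, 64.45 and 69.62 in P-MSCs. Mcm3 was the lowest in vBM-MSCs without overlap. Mcm2 had 7.78, 9.97 and 11.10 in fBM-MSCs, 7.33 and 8.92 in vBM-MSCs, 14.74, 22.28 and 17.31 in A-MSCs, and 55.37, 56.72 and 51.16 in P-MSCs. Mcm7 had 11.24, 16.10 and 14.05 in fBM-MSCs, 8.02 and 10.22 in vBM-MSCs, 25.16, 28.05 and 28.14 in A-MSCs, and 68.48, 65.41 and 75.59 in P-MSCs. For both genes A-MSCs and P-MSCs stood apart from marrow and from each other.

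The subunits of the ring were closer to each other in level where they were higher. In the single libraries, the most abundant of Mcm2 to Mcm7 exceeded the least abundant by 3.0 to 4.53 times in marrow, by 2.39 to 2.73 times in A-MSCs and by 1.89 to 1.93 times in P-MSCs. The genes also took a growing share of the summed TPM of the 40 members, from 9.31% to 12.6% in marrow and 14.6% to 17.4% in A-MSCs to 20.2% to 20.8% in P-MSCs. Neither range overlapped between these groups.

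**Figure D3:**
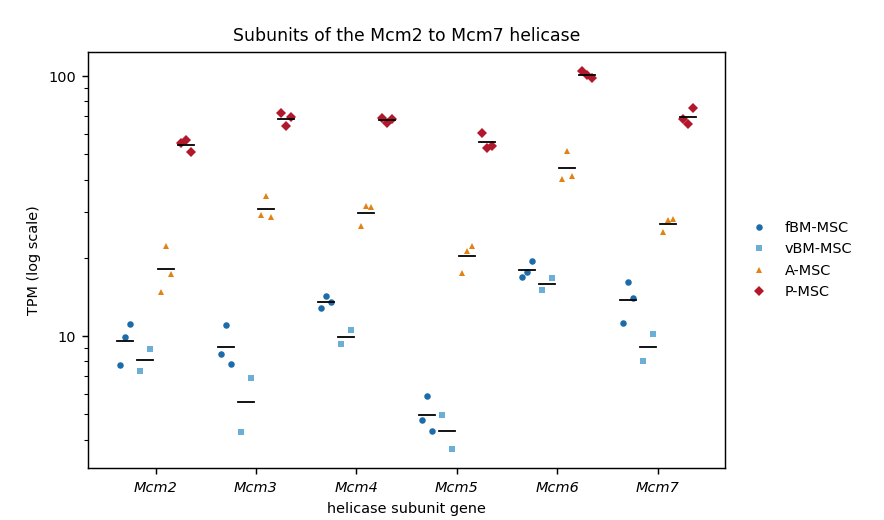
Points are the TPM of single libraries, on a log axis, for each helicase subunit gene, with black bars at the tissue means. P-MSC points lie between 51.16 and 104.76 TPM and marrow points between 3.68 and 19.52, and the 6 genes are less spread in P-MSCs than in marrow.

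The promoters of Mcm5 and Mcm6 are shown because they hold E2F letters in overlapping pairs, in which the letters run on opposite strands across the same stretch. Capitals mark the E2F letters in the 250 bases before each RefSeq start of GRCm38.p6.
Mcm5 (chr8:75109259-75109508, plus strand): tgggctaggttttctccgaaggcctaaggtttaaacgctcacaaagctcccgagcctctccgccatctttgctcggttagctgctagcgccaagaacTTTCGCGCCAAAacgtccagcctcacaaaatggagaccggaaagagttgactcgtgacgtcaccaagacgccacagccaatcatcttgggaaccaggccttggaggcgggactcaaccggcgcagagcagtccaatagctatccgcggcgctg
Mcm6 (chr1:128359706-128359955, minus strand): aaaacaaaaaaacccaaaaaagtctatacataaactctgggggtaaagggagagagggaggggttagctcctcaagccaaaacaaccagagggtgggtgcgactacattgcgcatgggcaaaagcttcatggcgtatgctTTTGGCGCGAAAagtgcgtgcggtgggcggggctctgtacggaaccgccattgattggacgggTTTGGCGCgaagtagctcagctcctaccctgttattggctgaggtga
In Mcm5 the 2 matches begin 153 and 149 bases before the start, and in Mcm6 the 3 matches begin 110, 106 and 47 bases before it. Of the helicase subunits with a window, Mcm3 and Mcm7 also matched and Mcm2 did not. The mRNA of Mcm2 rose in P-MSCs against fBM-MSCs by a log2 fold change of 2.38 (SE 0.17), close to the 2.37 (SE 0.12) of Mcm6.

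The loaders Cdc6 and Cdt1 differed from each other. Cdc6, an ATPase that helps to load the ring, had a mean of 0.567 ± 0.150 TPM (SD, n = 3) in fBM-MSCs. Its mean in P-MSCs was 9.68 ± 1.27 TPM (SD, n = 3), a log2 fold change of 3.97 (SE 0.30, edgeR adjusted p = 2.11e-06). Cdt1 (chr8:122568015-122573130) carries the helicase to the origin. Its TPM was 9.93, 10.84 and 12.74 in fBM-MSCs, 3.98 and 4.84 in vBM-MSCs, 7.07, 7.94 and 11.46 in A-MSCs, and 28.85, 27.34 and 27.11 in P-MSCs. Cdt1 was lowest in vBM-MSCs without overlap, and A-MSCs overlapped fBM-MSCs. Between A-MSCs and fBM-MSCs the log2 fold change was −0.26 (SE 0.19, edgeR adjusted p = 0.289), the only member of the group that did not pass there. Without replicate 3 of the A-MSCs, Cdt1 passed as lower in A-MSCs.

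Helicase activation held 7 of 8 genes that were higher in P-MSCs than in fBM-MSCs (median log2 fold change 2.46), and 4 of 8 that were higher than in A-MSCs. The latter count was 7 of 8 with limma on log2(TPM + 1), which added Gins1, Gins2 and Gins4, and 6 of 8 in a model of those tissues alone, which added Gins1 and Gins2. Dbf4 (chr5:8396969-8422716), the regulatory subunit of the Cdc7 kinase, had a TPM of 9.12, 8.85 and 8.61 in fBM-MSCs, 8.58 and 7.19 in vBM-MSCs, 29.89, 28.00 and 22.50 in A-MSCs, and 52.16, 43.78 and 51.77 in P-MSCs. Marrow was low, adipose tissue intermediate and lung high, with no overlap. Its partner Cdc7 was scarcer, with a mean of 0.707 TPM for fBM-MSCs and 0.635 for vBM-MSCs, rising to 2.07 in A-MSCs and 6.28 in P-MSCs. Its call between P-MSCs and A-MSCs (1.40, SE 0.40, edgeR adjusted p = 0.021) was lost without replicate 1 or 2 of the A-MSCs or any replicate of the P-MSCs. Cdc7 rose by 3.06 (SE 0.43) and Dbf4 by 2.35 (SE 0.15) on the log2 scale in P-MSCs against fBM-MSCs. Mcm10, a scaffold of the active helicase, rose by 2.07 (SE 0.32, edgeR adjusted p = 0.000899) from A-MSCs to P-MSCs and by 1.04 (SE 0.33, edgeR adjusted p = 0.0245) from fBM-MSCs to A-MSCs. The latter call was lost in a model of those tissues alone and without several single libraries. Cdc45 rose by 2.58 (SE 0.23) in P-MSCs against fBM-MSCs.

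The GINS subunits, which form a stable assembly of 4 different proteins, were uneven. Gins2 (chr8:120581266-120589075, 5 exons) had the highest mean over all libraries. Its TPM was 24.26, 21.41 and 9.98 in fBM-MSCs, 20.02 and 23.02 in vBM-MSCs, 50.92, 53.54 and 54.64 in A-MSCs, and 88.44, 98.41 and 97.33 in P-MSCs. Its tissues outside marrow stood apart, but the step from A-MSCs to P-MSCs did not pass (0.63, SE 0.24, edgeR adjusted p = 0.0699). It passed on both TPM scales, in a model of those tissues alone, with the length trend removed, and without replicate 1 or 3 of the fBM-MSCs. Its exons share 11.4% of their bases with Gse1. Gins3 (chr8:95633559-95645059, 3 exons) was low everywhere, with a TPM of 4.67, 3.88 and 2.58 in fBM-MSCs, 0.57 and 2.85 in vBM-MSCs, 4.68, 2.28 and 4.13 in A-MSCs, and 5.93, 5.16 and 6.13 in P-MSCs. The other tissues overlapped below P-MSCs. Of the pairs of tissues, Gins3 passed between P-MSCs and vBM-MSCs alone (1.71, SE 0.55, edgeR adjusted p = 0.0282). That call was lost without replicate 1 or 3 of the P-MSCs and with the replicate number as a block. It rests on 2 vBM-MSC libraries with unlike values. Leaving out either leaves 1 library of that tissue, with the spread taken from the other tissues, so calls of those fits are not given. Its test among the 4 tissues, which did not pass, did so with DESeq2 and on both TPM scales. Gins1 and Gins4 rose in P-MSCs against fBM-MSCs by 3.05 (SE 0.53) and 1.06 (SE 0.13).

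All 6 genes of the polymerases and primase passed in every comparison of a non-marrow with a marrow tissue and in P-MSCs against A-MSCs, always in that order of levels. Prim1 (chr10:128015215-128030030), the catalytic subunit of primase, had the highest mean of them over all libraries. Its TPM was 7.58, 4.03 and 4.27 in fBM-MSCs, 4.52 and 5.80 in vBM-MSCs, 16.65, 24.79 and 15.87 in A-MSCs, and 55.89, 45.94 and 58.57 in P-MSCs. Between P-MSCs and fBM-MSCs its log2 fold change was 3.22 (SE 0.28) and that of its partner Prim2 (chr1:33453808-33669794) 1.70 (SE 0.13), and the difference of these was not tested. Prim2 had the tightest replicates of the group, with 10.32, 9.79 and 9.85 TPM in fBM-MSCs, 9.65 and 8.81 in vBM-MSCs, 20.76, 22.13 and 22.14 in A-MSCs, and 34.49, 33.61 and 38.08 in P-MSCs. The marrow tissues overlapped for Prim1, whereas both vBM-MSC libraries lay below the fBM-MSCs for Prim2, and A-MSCs and P-MSCs stood apart for both.

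Pola1 and Pola2 encode subunits of polymerase alpha, which extends the primer. Pola2 (chr19:5940543-5964206) had a TPM of 7.14, 7.25 and 4.95 in fBM-MSCs, 2.93 and 5.95 in vBM-MSCs, 8.27, 10.39 and 10.05 in A-MSCs, and 23.91, 19.06 and 24.15 in P-MSCs. A-MSCs lay close above fBM-MSCs, and that call (0.65, SE 0.23, edgeR adjusted p = 0.0424) was lost with the replicate number as a block, under upper quartile normalization, on the TPM scale and without several of the single libraries. The same call for Pola1 was lost without replicate 1 of the A-MSCs, and that of Pole between P-MSCs and A-MSCs without replicate 1 of the P-MSCs. The catalytic subunits of the leading and lagging strand polymerases were among the scarcest members. Pole reached a mean of 2.79 ± 0.520 TPM (SD, n = 3) in P-MSCs from 0.377 ± 0.051 (SD, n = 3) in fBM-MSCs, and Pold1 a mean of 15.7 ± 1.28 from 2.66 ± 0.706 (SD, n = 3 each). Their log2 fold changes were 2.76 (SE 0.35) and 2.44 (SE 0.25), and that of Pola1, the X-linked member, was 2.41 (SE 0.31).

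Pcna (chr2:132249286-132253180, 6 exons), the ring that holds the polymerases on DNA, was the most abundant of the 40 genes in every tissue. Its TPM was 135.59, 138.83 and 146.45 in fBM-MSCs, 113.95 and 126.84 in vBM-MSCs, 192.50, 195.72 and 186.13 in A-MSCs, and 390.14, 359.37 and 355.19 in P-MSCs. Pcna followed the order of the helicase without overlap between the tissues, at a smaller fold, 2.41 between P-MSCs and fBM-MSCs (log2 1.27, SE 0.09, edgeR adjusted p = 1.47e-06).

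The clamp loader, which opens Pcna and sets it on DNA, is built of the small subunits Rfc2 to Rfc5 and the large subunit Rfc1. Rfc5 (chr5:117379145-117389023) had 5.81, 7.45 and 9.32 TPM in fBM-MSCs, 7.56 and 8.18 in vBM-MSCs, 21.02, 26.86 and 19.65 in A-MSCs, and 60.17, 50.93 and 55.24 in P-MSCs. It rose from marrow to adipose tissue by 1.65 (SE 0.18, against fBM-MSCs) and from A-MSCs to P-MSCs by 1.10 (SE 0.17) on the log2 scale. The other small subunits kept the same order, with A-MSCs above fBM-MSCs by 0.70 (SE 0.14) for Rfc2, 0.49 (SE 0.15) for Rfc3 and 1.07 (SE 0.22) for Rfc4. The Rfc3 call (edgeR adjusted p = 0.0246) was lost in a model of those tissues alone and without several single libraries. Rfc4 shares 13.2% of its exonic bases with Eif4a2.

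Rfc1 (chr5:65261852-65335639, 25 exons) did not follow its partners in adipose tissue. Its TPM was 4.42, 4.38 and 3.69 in fBM-MSCs, 2.49 and 5.41 in vBM-MSCs, 3.26, 2.43 and 2.12 in A-MSCs, and 12.87, 14.04 and 14.40 in P-MSCs. The A-MSC libraries lay below all fBM-MSC libraries, and P-MSCs stood clear above. Of the vBM-MSC values, 2.49 lay within the A-MSC range and 5.41 above the fBM-MSCs. The log2 fold change was −0.61 between A-MSCs and fBM-MSCs (SE 0.23, edgeR adjusted p = 0.0521), just short of the threshold, and Rfc1 passed as lower in A-MSCs with the size factors of DESeq2 in edgeR, with upper quartile normalization, with DESeq2 itself and without either vBM-MSC library or replicate 1 of the A-MSCs. From A-MSCs to P-MSCs its log2 fold change was 2.22 (SE 0.23, edgeR adjusted p = 8.08e-05). Across all genes, long transcripts were also relatively higher in P-MSCs than in A-MSCs. With the transcript length trend removed, Rfc1 still passed between P-MSCs and A-MSCs, at a log2 fold change of 2.12, and did not pass between A-MSCs and fBM-MSCs. Before its removal the median log2 fold change was 0.233 for 1365 genes with transcripts over 6000 bases and −0.21 for 762 genes of at most 1000 bases.

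**Figure D4:**
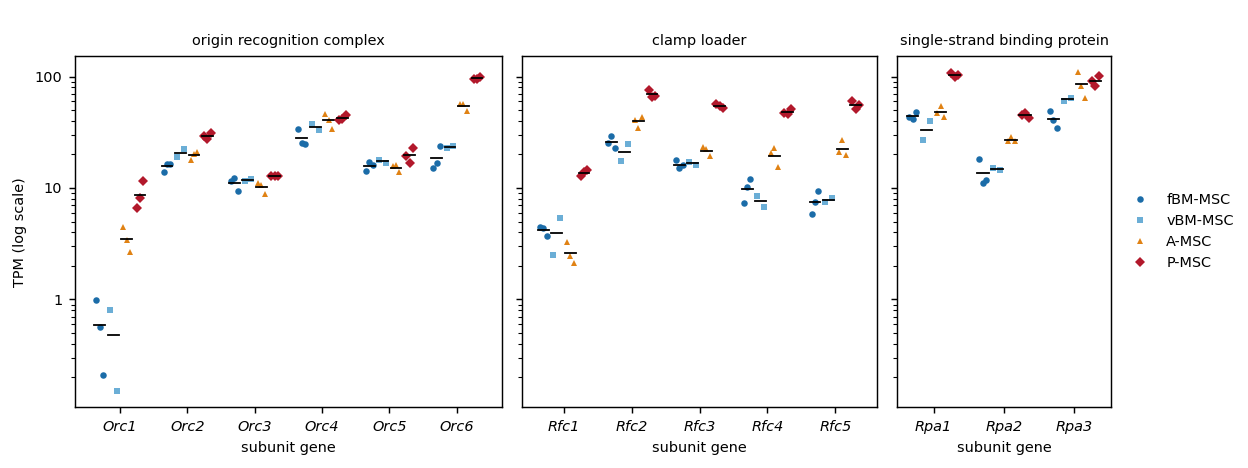
Points are the TPM of single libraries on a common log axis for the subunits of the origin recognition complex, the clamp loader and the single-strand binding protein, with black bars at the tissue means. Orc2 to Orc5, Rfc1 and Rpa1 in A-MSCs, and Rpa3 depart from the stepwise rise that Orc1, Orc6, Rfc2 to Rfc5 and Rpa2 show.

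Strand completion held all 6 genes higher in P-MSCs than in fBM-MSCs. Fen1 (chr19:10199132-10204393), the nuclease that trims the flaps of Okazaki fragments, had a TPM of 12.40, 9.84 and 10.29 in fBM-MSCs, 7.81 and 8.35 in vBM-MSCs, 22.16, 32.16 and 27.13 in A-MSCs, and 55.07, 52.19 and 52.33 in P-MSCs. No tissue overlapped another for Fen1. Lig1, the ligase that seals the fragments, differed by 2.001 (SE 0.365, edgeR adjusted p = 0.000898) between P-MSCs and fBM-MSCs, and by 0.41 (SE 0.36, edgeR adjusted p = 0.387) between A-MSCs and fBM-MSCs. Lig1 overlaps Zswim9 over 6.95% and Fen1 overlaps Tmem258 over 2.43% of the exonic bases.

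The subunits of the single-strand binding protein RPA had unlike values across the tissues. Rpa3 (chr6:8255936-8259141, 4 exons), the smallest, had the highest mean TPM of the group over all libraries. Its TPM was 48.99, 41.16 and 34.35 in fBM-MSCs, 60.89 and 64.74 in vBM-MSCs, 109.63, 82.90 and 64.76 in A-MSCs, and 91.89, 81.99 and 100.41 in P-MSCs. The fBM-MSCs were lowest, and A-MSCs and P-MSCs overlapped (log2 fold change −0.15, SE 0.22, edgeR adjusted p = 0.657). Rpa1, the large subunit that grips the DNA, rose in P-MSCs, at 103 ± 4.51 TPM (SD, n = 3) against 48.3 ± 5.51 (SD, n = 3) in A-MSCs and 44.7 ± 3.45 (SD, n = 3) in fBM-MSCs. It did not pass between A-MSCs and fBM-MSCs (0.18, SE 0.13, edgeR adjusted p = 0.272). Rpa2 rose at both steps, by 1.06 (SE 0.19) from fBM-MSCs to A-MSCs and by 0.53 (SE 0.18, edgeR adjusted p = 0.0472) from A-MSCs to P-MSCs, though the latter call was lost on leaving out any 1 of the 6 libraries of those tissues, and with the size factors of DESeq2. Whether the subunits differ from each other was not tested.

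Top2a (chr11:98992947-99024189, 36 exons), the topoisomerase that untangles sister chromosomes and peaks later in the cycle, rose by 3.42 (SE 0.33, edgeR adjusted p = 9.77e-06) in P-MSCs against fBM-MSCs, from 3.45 ± 1.71 to 40.2 ± 5.15 TPM (SD, n = 3 each). Its promoter is shown because it held the most CCAAT and CHR matches of the members. It had no E2F match and 6 CCAAT boxes, which the factor NF-Y is known to bind, with 4 CHR matches (TTTGAA or TTCGAA), an element of genes expressed in G2 and mitosis. Both are in capitals, on either strand, in the 250 bases before the start. CCAAT matches were also held by Mcm2, Mcm3, Mcm5, Mcm6 and Mcm7, in lower case where the Mcm5 and Mcm6 promoters are printed above, and CHR matches by Mcm2 and Mcm7.
Top2a (chr11:99024190-99024439, minus strand): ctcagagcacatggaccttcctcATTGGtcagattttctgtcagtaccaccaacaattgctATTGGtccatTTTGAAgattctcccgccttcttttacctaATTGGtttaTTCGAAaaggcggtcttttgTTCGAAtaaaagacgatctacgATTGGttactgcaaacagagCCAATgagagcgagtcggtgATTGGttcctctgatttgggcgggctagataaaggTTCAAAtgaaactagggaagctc
Of the 33 members with a window, 9 (27.3%) held a CHR match, against 21.7% of genes with a window and 15.9% of tested genes, and 21 (63.6%) a CCAAT box, against 41.1% and 43.0%. These short letters are common, and the differences were not tested.

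The marrow tissues were close to each other. Between vBM-MSCs and fBM-MSCs, 5 of 40 members were lower in vBM-MSCs and 0 higher, where 5.24% of all genes were lower and 7.56% higher, and the median log2 fold change of the members was −0.25 against −0.02 for all genes. The 5 were Cdt1, at −1.39 (SE 0.22, edgeR adjusted p = 0.00278), Mcm3 at −0.75 (SE 0.18), Mcm7 at −0.64 (SE 0.14), Mcm4 at −0.49 (SE 0.11) and Rpa1 at −0.49 (SE 0.14). In 4 of the 5 the gene loads or forms the helicase. The Rpa1 call (edgeR adjusted p = 0.0451) was lost with the replicate number as a block, on both TPM scales and without the filter. It was also lost without any 1 of several libraries, among them replicates 1 and 3 of the A-MSCs and each replicate of the P-MSCs. The count also moved with the vBM-MSC libraries used, and fell to 1 (Cdt1) in a model of the marrow tissues alone. Without replicate 1 or 2 of the vBM-MSCs, 1 library of that tissue remains and the spread comes from the other tissues, so no count is given. The median log2 fold change of the members was −0.25 without replicate 1 and −0.20 without replicate 2. Both vBM-MSC libraries lay below every other library for 14 members, against 2.92% of all genes, among them Cdc6, Cdc45, Dbf4, Pole, Pcna and Fen1 beside the 5. In Orc2 and Rpa3 the fBM-MSCs were lowest instead, as in 9.09% of all genes.

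Replicates were closest where the levels were highest. The median coefficient of variation of the members was 17.6% for fBM-MSCs and 16.5% for vBM-MSCs, against 18.3% and 18.5% over all genes tested. It was 12% for A-MSCs and 6.95% for P-MSCs, against 14.7% and 10.6%. Replicate 1 of the fBM-MSCs, the shallowest library, had the lowest Top2a (1.49 TPM, against 4.65 and 4.21) and the lowest Lig1 (1.53 TPM). Replicate 3 had the lowest Gins1 (0.51, against 1.95 and 3.25) and Gins2. The widest standard error against fBM-MSCs was that of Orc1.

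Most promoters of the members held a summit in each of the 4 tissues. An ATAC-seq summit at a −log10 q of at least 7 lay within 1000 bases of a RefSeq start for 37 of 39 autosomal members in fBM-MSCs, for all 39 in vBM-MSCs and in A-MSCs, and for 38 in P-MSCs, where 87.1% to 89.6% of tested genes had such a summit. The lists cover no sex chromosome, so Pola1 was not analysed there. No such summit was listed for Prim1 in fBM-MSCs and P-MSCs or for Pola2 in fBM-MSCs, and where listed theirs were among the weakest, at 5.52 to 6.62-fold enrichment. At a −log10 q of at least 20, 32 members had a summit in fBM-MSCs, 34 each in vBM-MSCs and A-MSCs, and 36 in P-MSCs, where 63.6% to 71.6% of tested genes did.

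The strongest promoter summit of the members had a median fold enrichment over background of 20.6 for fBM-MSCs and 20.2 for vBM-MSCs, against 14.3 and 15.8 over all tested genes. It was 22.1 for A-MSCs and 25.9 for P-MSCs, against 16.2 and 16.9. With 1 pooled list per tissue there are no replicates and no test. Between P-MSCs and fBM-MSCs the median log2 ratio was 0.41 in the 37 members with a summit in both and 0.25 in all tested genes, and 32 of the 37 lay above 0 as did 74.1% of tested genes. The corresponding medians were 0.17 and 0.08 for P-MSCs over A-MSCs, and 0.26 and 0.18 for A-MSCs over fBM-MSCs. They were 0.24 and 0.12 for P-MSCs over vBM-MSCs, and 0.14 and 0.05 for A-MSCs over vBM-MSCs. For vBM-MSCs over fBM-MSCs the members lay below all tested genes, at 0.10 and 0.13.

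Single promoters, chosen here after their values were seen, included some with and some without the direction of their mRNA. Cdc6 rose in both, with a fold enrichment of 15.1 in fBM-MSCs and 33.1 in P-MSCs, and so did Mcm5 (20.6 and 36.4) and Top2a (11.4 and 22.8). Orc3, flat in mRNA, went from 11.4 to 20.6, while Orc1 had 19.9 in fBM-MSCs and 18.8 in P-MSCs. Beside the 32 members with a ratio above 0 on the log2 scale, it was under 0 for Orc1, Orc2, Cdt1, Rpa1 and Rpa2, all of them called higher in mRNA. The summit of Rfc1 was at 10.7-fold enrichment in fBM-MSCs but 15.1 in A-MSCs, where its mRNA was lowest, and it reached 20.6 in P-MSCs. Gins2 had the strongest promoter summit of the members in every tissue, between 52.6 and 78.0-fold.

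**Figure D5:**
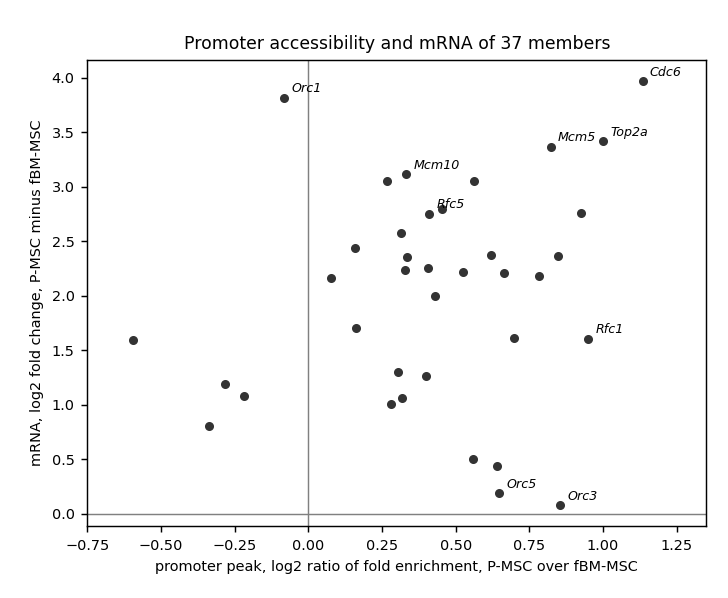
Each point is 1 of 37 members; the horizontal axis is the log2 ratio of promoter fold enrichment in ATAC-seq, P-MSCs over fBM-MSCs, and the vertical axis the log2 fold change of the mRNA. Promoter ratios run from −0.60 to 1.13 and mRNA changes from 0.08 to 3.97, and Orc1 and Orc3 lie in opposite parts of the plot.

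Other genes of the S phase programme were counted on lists compiled from their known roles. Of 31 further replisome genes, 26 were higher in P-MSCs than in fBM-MSCs and 1, the small polymerase delta subunit Pold4, was lower (log2 fold change −1.16, SE 0.21, edgeR adjusted p = 0.000965), with a median of 1.62. Gmnn, the inhibitor of Cdt1, rose by 2.54 (SE 0.22) and Tipin, of the fork protection complex, by 1.62 (SE 0.12), whereas Chtf8 differed by 0.17 (SE 0.12, edgeR adjusted p = 0.271). In A-MSCs against fBM-MSCs, 12 of the 31 were higher and 0 lower, with a median of 0.97. Of 13 genes of nucleotide supply, 12 were higher in P-MSCs than in fBM-MSCs, the exception being the p53-induced Rrm2b (−0.27, SE 0.32). Against A-MSCs, 7 of the 13 were higher in P-MSCs and 0 lower, with a median of 0.66. Thymidine kinase Tk1 rose by 3.68 (SE 0.25) and thymidylate synthase Tyms by 2.27 (SE 0.13), the latter without passing between P-MSCs and A-MSCs (0.35, edgeR adjusted p = 0.0546). All 9 genes of chromatin assembly behind the fork were higher in P-MSCs than in fBM-MSCs, with Uhrf1, a maintenance factor of DNA methylation, at 3.92 (SE 0.28), the histone chaperone Nasp at 2.62 (SE 0.17) and Rbbp4 at 0.61 (SE 0.10).

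Genes that control entry into S phase were mixed. Of 24 tested, 17 were higher in P-MSCs than in fBM-MSCs and 4 lower, Ccnd1, Ccnd2, Rbl2 and Tfdp2. Against A-MSCs, 10 were higher in P-MSCs and 1 (Ccnd2) lower, with a median of 0.30, and 13 were not called. Ccne2, a cyclin E, rose by 3.16 (SE 0.14). Cyclin D1 (Ccnd1) was highest in femoral marrow, with a mean of 606 ± 49.4 TPM (SD, n = 3) for fBM-MSCs and 264 ± 53.7 (SD, n = 2) for vBM-MSCs. It was 35.4 ± 3.28 (SD, n = 3) for A-MSCs and 129 ± 3.85 (SD, n = 3) for P-MSCs. Its log2 fold change between P-MSCs and fBM-MSCs was −2.36 (SE 0.11, edgeR adjusted p = 1.69e-07), whereas that between P-MSCs and A-MSCs was 1.67 (SE 0.11, edgeR adjusted p = 4.15e-06). All 20 mitosis genes were higher in P-MSCs than in fBM-MSCs, with a median of 3.52 against the 2.21 of the 40 replication genes. Birc5 rose by 3.90 (SE 0.16) and Cdk1 by 3.15 (SE 0.15), and Ttk by 3.22 (SE 0.67). Against A-MSCs, 17 of the 20 were higher in P-MSCs, with a median of 1.007, beside the 1.05 of the replication genes.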

How the data were processed

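The RNA-seq values were made by the authors with RSEM and STAR from Smart-seq2 reads (mm10, paired ends), and deposited per gene and library in the units expected counts and TPM, with replicates not pooled. Tool versions are not given in the sources used here. The ATAC-seq lists were made by the authors with Bowtie, Picard duplicate removal, a Tn5 shift and MACS2 on the pooled samples of each tissue (3 replicates, each sequenced in 2 runs by the labels), and deposited with the fold enrichment, the −log10 q and the summit offset of each peak. One library, vBM-MSC replicate 3, was not analysed here. No column of other samples was found.

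The 40 members and all gene lists were chosen with earlier results of these data known. Expected counts were rounded and tested over all 12509 genes with edgeR 4.0.16 (R 4.3.3, TMM, quasi-likelihood test, tissue as the only term, all 11 libraries, genes under a CPM of 1 in all but 1 or no library left out, Benjamini-Hochberg adjusted p under 0.05). Alternatives were other size factors, DESeq2 1.42.0, limma 3.58.1 on log2(TPM + 1) and log2(TPM + 0.1), no filter, models of the compared tissues alone, a replicate block, and leaving out each library. Removal of a transcript length trend was added after the data were seen. Named genes were those with the highest and lowest F value and the highest mean TPM in each role group, with Mcm2 to Mcm7, and of each further list the genes with the 2 highest and the lowest F values. Orc1 and the other genes given beyond these were chosen after their values were seen.

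A promoter peak was a summit within 1000 bases of a RefSeq start at a −log10 q of at least 7. Sequences are those of RefSeq for GRCm38.p6. Python 3.11.15, numpy 2.4.6, pandas 2.3.3 and matplotlib 3.10.9 were used, and the scripts were tested on simulated data. Totals of 19569650 to 40517739 expected counts per library set the precision, which was lowest for Orc1 and Gins1, with 10 and 11 counts in their lowest library.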

Additional observations from a re-analysis of the deposited data

How the results depend on the processing

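For every comparison that involved P-MSCs or A-MSCs, the number of members called stayed within 1.5 times its value under every alternative run. It did not for vBM-MSCs against fBM-MSCs, where 5 members were called and 1 in a model of the 2 groups alone. Leaving out each library in turn gave 1 (without vBM-MSC replicate 1) to 8 (without vBM-MSC replicate 2) for that pair. It gave 36 to 38 among the 4 tissues, 36 to 37 for P-MSCs against fBM-MSCs, 35 to 36 against vBM-MSCs, 28 to 33 against A-MSCs, and for A-MSCs 30 to 34 against fBM-MSCs and 29 to 31 against vBM-MSCs. The cause of these shifts was not tested.

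Whether equal replicate numbers mark a shared mouse is not given. Correlations of deviations from the tissue means cannot decide it, because a weak effect of the mouse could go unseen. Of 15 same-numbered pairs, 1 had a correlation over 0.1, with a range of −0.04 to 0.114. The 30 different-numbered pairs ran from −0.114 to 0.0938. With the replicate block, 37 members differed among the 4 tissues and 37, 35 and 31 between P-MSCs and fBM-MSCs, vBM-MSCs and A-MSCs. The block gave 32 for A-MSCs against each marrow tissue and 4 for the marrow pair. For the fold changes called in the report, 3440 values were recomputed under alternatives, of which 3368 kept direction and side of the threshold, 72 kept direction alone and 0 reversed. Depth limits Orc1, Gins1, Cdc6 and Cdc7 most, with 10 to 24 counts in their lowest library, and the ATAC-seq lists hold no replicates.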
